A study of Homo sapiens with 24 samples.

Results

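The MYC, MAX and MXD network is a family of basic helix-loop-helix leucine zipper transcription factors, and its members were chosen here by gene name: MYC, MYCN, MYCL, MAX, MXD1, MXD3, MXD4, MXI1, MNT and MLX, 10 of the 26475 genes counted. Messenger RNA was sequenced from 24 libraries of 2 human clear cell renal cell carcinoma lines, the M1A metastatic derivative of the established line 786-O (the 786-O derivative below), and OS-LM1, a metastatic derivative of the established line OS-RC2. Each line carried 1 of 3 constructs, and each combination of line and construct had 4 replicates. The constructs shPAX8-1 and shPAX8-2 are short hairpin RNAs against PAX8, a transcription factor of the renal lineage, and sgNTC18 is a non-targeting guide RNA. The hairpins were cloned in a doxycycline-inducible vector, but the sample labels give neither the dose nor the time of doxycycline. All libraries came from cells grown in RPMI with fetal bovine serum, and no group carried both a hairpin and the guide. Nothing in the labels says that the replicates are separate cultures, so the p-values measure the spread between these samples, which may be technical.

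The genes lie on 8 chromosomes of GRCh38. MYC spans positions 127735434 to 127742951 of chromosome 8, MYCN 15940550 to 15947004 of chromosome 2 and MYCL 39895428 to 39901917 of chromosome 1. MAX spans 65006101 to 65102695 of chromosome 14. MXD1 lies on chromosome 2 from 69915109 to 69942945, MXD3 on chromosome 5 from 177305499 to 177312752, MXD4 on chromosome 4 from 2247432 to 2262109 and MXI1 on chromosome 10 from 110207605 to 110287365. MNT, from 2384073 to 2401060, and MLX, from 42567100 to 42573203, share chromosome 17.

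In this family MAX is the shared partner. MYC, MYCN and MYCL bind DNA as dimers with MAX at the E-box CACGTG and activate transcription, above all of genes for ribosome biogenesis, nucleotide synthesis and metabolism. The MXD proteins (MXD1, MXD3, MXD4 and MXI1) and MNT also dimerise with MAX, bind the same sequence and recruit the SIN3 corepressors, so they oppose MYC. MLX pairs with MXD1, MXD4 and MNT, and with the glucose-sensing factors MLXIP (MondoA) and MLXIPL. In the kidney MYC is a known oncogene of renal carcinoma, where it acts beside the hypoxia-inducible factors, and MXI1 is a known target of those factors.

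The hairpin guide strands are shown because they define the groups, with bases 2 to 8 (the seed) in capitals, 5′ to 3′. Bases 2 to 22 of shPAX8-1 match PAX8 at chr2:113241691-113241711 (GRCh38, minus strand), in exon sequence that is coding in some transcripts and untranslated in others. They match 10 of 14 PAX8 transcripts. Those of shPAX8-2 match chr2:113218123-113218143 in untranslated sequence of an exon, in 7 of 14 transcripts.
shPAX8-1: tGTGAGTCaatgcttagtcggc
shPAX8-2: tAGAGTTGtgttaataatggag

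The promoters of members are shown because the E-box is the sequence the family itself binds. The RefSeq promoter table (GRCh38.p14, 250 bases before to 50 after each start) held 12 promoters of 9 members, all but MYC. CACGTG, which reads the same on both strands, was found in 3 of the 12, once each in MLX, MNT and MXD4, and in 7.26% of the 35116 promoters in the table. It started at -50 in MLX, at -193 in MNT and at -238 in MXD4, counted from the transcription start. None of the promoters of MAX, MXD1, MXD3, MXI1, MYCL and MYCN in the table held these letters. The 250 bases before the start are printed with CACGTG in capitals, for MLX at chr17:42566850-42567099 (plus strand), MNT at chr17:2401061-2401310 (minus strand) and MXD4 at chr4:2262110-2262359 (minus strand).
MLX: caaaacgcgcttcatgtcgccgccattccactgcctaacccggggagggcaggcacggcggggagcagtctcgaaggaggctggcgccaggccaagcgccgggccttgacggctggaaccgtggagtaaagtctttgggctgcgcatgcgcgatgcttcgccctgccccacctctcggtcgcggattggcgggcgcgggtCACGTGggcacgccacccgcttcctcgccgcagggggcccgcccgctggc
MNT: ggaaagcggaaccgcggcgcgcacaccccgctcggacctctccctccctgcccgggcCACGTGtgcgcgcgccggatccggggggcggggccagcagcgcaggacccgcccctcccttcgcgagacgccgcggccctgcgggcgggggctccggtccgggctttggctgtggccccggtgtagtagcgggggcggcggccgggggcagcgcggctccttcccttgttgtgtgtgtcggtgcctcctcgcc
MXD4: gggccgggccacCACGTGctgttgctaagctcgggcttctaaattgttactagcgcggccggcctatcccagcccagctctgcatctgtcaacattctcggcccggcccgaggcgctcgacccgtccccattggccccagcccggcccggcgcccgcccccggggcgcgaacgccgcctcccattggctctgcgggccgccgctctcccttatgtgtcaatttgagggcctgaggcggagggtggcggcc
The table held 3 promoters of MXI1, and 1 is added because the lines differed widely in MXI1, at chr10:110209981-110210230 (plus strand). Its capitals mark ACGTG or GCGTG on either strand, the core of the sequence that hypoxia-inducible factors bind. CACGTG contains ACGTG, so the motifs overlap, and 48.45% of all promoters in the table hold ACGTG or GCGTG. This promoter was chosen after the matches were counted: it held 2 in these bases, the promoter ending at 110207604 held none and the one ending at 110225995 held 1. A match describes the letters and is not evidence of binding.
MXI1: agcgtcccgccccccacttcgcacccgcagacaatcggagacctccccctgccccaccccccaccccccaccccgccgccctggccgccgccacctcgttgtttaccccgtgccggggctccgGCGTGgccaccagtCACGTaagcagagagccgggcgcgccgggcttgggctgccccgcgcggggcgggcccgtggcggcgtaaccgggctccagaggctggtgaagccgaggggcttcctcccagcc

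Library totals ranged from 11634419 to 52059375 expected counts (median 20511914.5). Levels are given in CPM, the count of a gene scaled to a fixed library total with trimmed mean of M-values factors. PAX8 was at 292 to 393 CPM in the 786-O derivative sgNTC18 libraries, 14.8 to 22.9 with shPAX8-1 and 40.0 to 45.5 with shPAX8-2. In OS-LM1 it was at 245 to 279, 59.8 to 89.2 and 63.8 to 97.0 CPM, so PAX8 was lower in every shPAX8 library than in any sgNTC18 library of its line. Of 11 renal epithelial and carcinoma markers, 9 to 11 had a mean of at least 1 TPM in each group, with CA9 at 0 in all 4 sgNTC18 libraries of the 786-O derivative, and 0 of 5 endothelial markers did. Of 5 leukocyte markers CD68 did in every group and CD14 in the 4 hairpin groups, with CD3E at 0 in all 24 libraries, and of 5 fibroblast and smooth muscle markers COL1A1 did in every group, PDGFRB in the 786-O derivative and COL3A1 in OS-LM1 with shPAX8-1. Some of these lists moved with the groups: in OS-LM1 the summed leukocyte markers were at 73.7 to 85.8 TPM in sgNTC18, 249.5 to 327 with shPAX8-1 and 191 to 233 with shPAX8-2, and the summed fibroblast markers at 4.22 to 5.91, 32.8 to 40.3 and 30.2 to 60.1 TPM. In the 786-O derivative the leukocyte sums were 197 to 215, 179.5 to 288 and 288 to 365 TPM, and the fibroblast sums 182 to 232, 56.0 to 127 and 198.5 to 271 TPM. Their part in the results was not tested. Groups also differed technically. RNA18S5 took 1.18% to 2.05% of the counts in the 786-O derivative shPAX8 libraries and 4.52% to 5.11% in the 786-O derivative sgNTC18 libraries, against 2.49% to 6.53% and 6.06% to 8.16% in OS-LM1. Replicates of a group were also uneven. The 786-O derivative shPAX8-1 libraries formed pairs, with a per-gene chi-square of 13.2 for replicates 1 and 2, 3.58 for replicates 3 and 4, and 41.6 to 71.6 across these pairs. In shPAX8-2 of the same line the values were 3.78, 10.9 and 13.9 to 17.9. The largest value of the series was 83.2, between replicates 3 and 4 of OS-LM1 shPAX8-2, a group whose depth ran from 14567945 to 52059375 counts. The hairpin differences of the 786-O derivative are therefore also given for replicates 1 and 2 of both constructs and for replicates 3 and 4 of both, a pair of fits chosen after seeing the data. Against sgNTC18, the 8 members called with shPAX8-1 in that line were called with either pair of its shPAX8-1 libraries, at log2 fold changes of 0.84 and 1.12 for MYC, 0.41 and 0.50 for MAX, 2.27 and 2.99 for MXD1, -1.21 and -1.70 for MXD3, -0.53 and -1.20 for MXD4, 2.69 and 2.94 for MXI1, 1.44 and 0.97 for MNT, and 0.53 and 0.57 for MLX. The list counts and the differences between lines below use all 4 libraries. A hairpin library and an sgNTC18 library differ in the kind of construct as well as in PAX8, and the effects of construct and PAX8 cannot be told apart. In bulk RNA, fewer cells of a type and less RNA per cell cannot be told apart either.

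Of the 10 members, 9 passed the filter on low counts and were tested (edgeR quasi-likelihood test, Benjamini-Hochberg adjustment over all genes, threshold 0.05). MYCN did not pass. Most genes differed between most groups, so a count of members says little. In the 786-O derivative, 5 of 9 members differed between shPAX8-1 and shPAX8-2 (4 higher with shPAX8-1 and 1 lower), where 47.1% of all genes tested were called. Against sgNTC18, 8 of 9 were called with shPAX8-1 (70.6% of all genes) and 8 of 9 with shPAX8-2 (62.5%). In OS-LM1, 1 of 9 differed between the constructs (29.1% of all genes), 9 of 9 differed between shPAX8-1 and sgNTC18 (71.4%) and 8 of 9 between shPAX8-2 and sgNTC18 (68.4%). The comparisons with sgNTC18 within a line share the 4 sgNTC18 libraries. Median log2 fold changes of the 9 members lay between 0.05 and 0.73 in these 6 comparisons, against -0.03 to 0.03 for all genes.

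**Figure D1:**
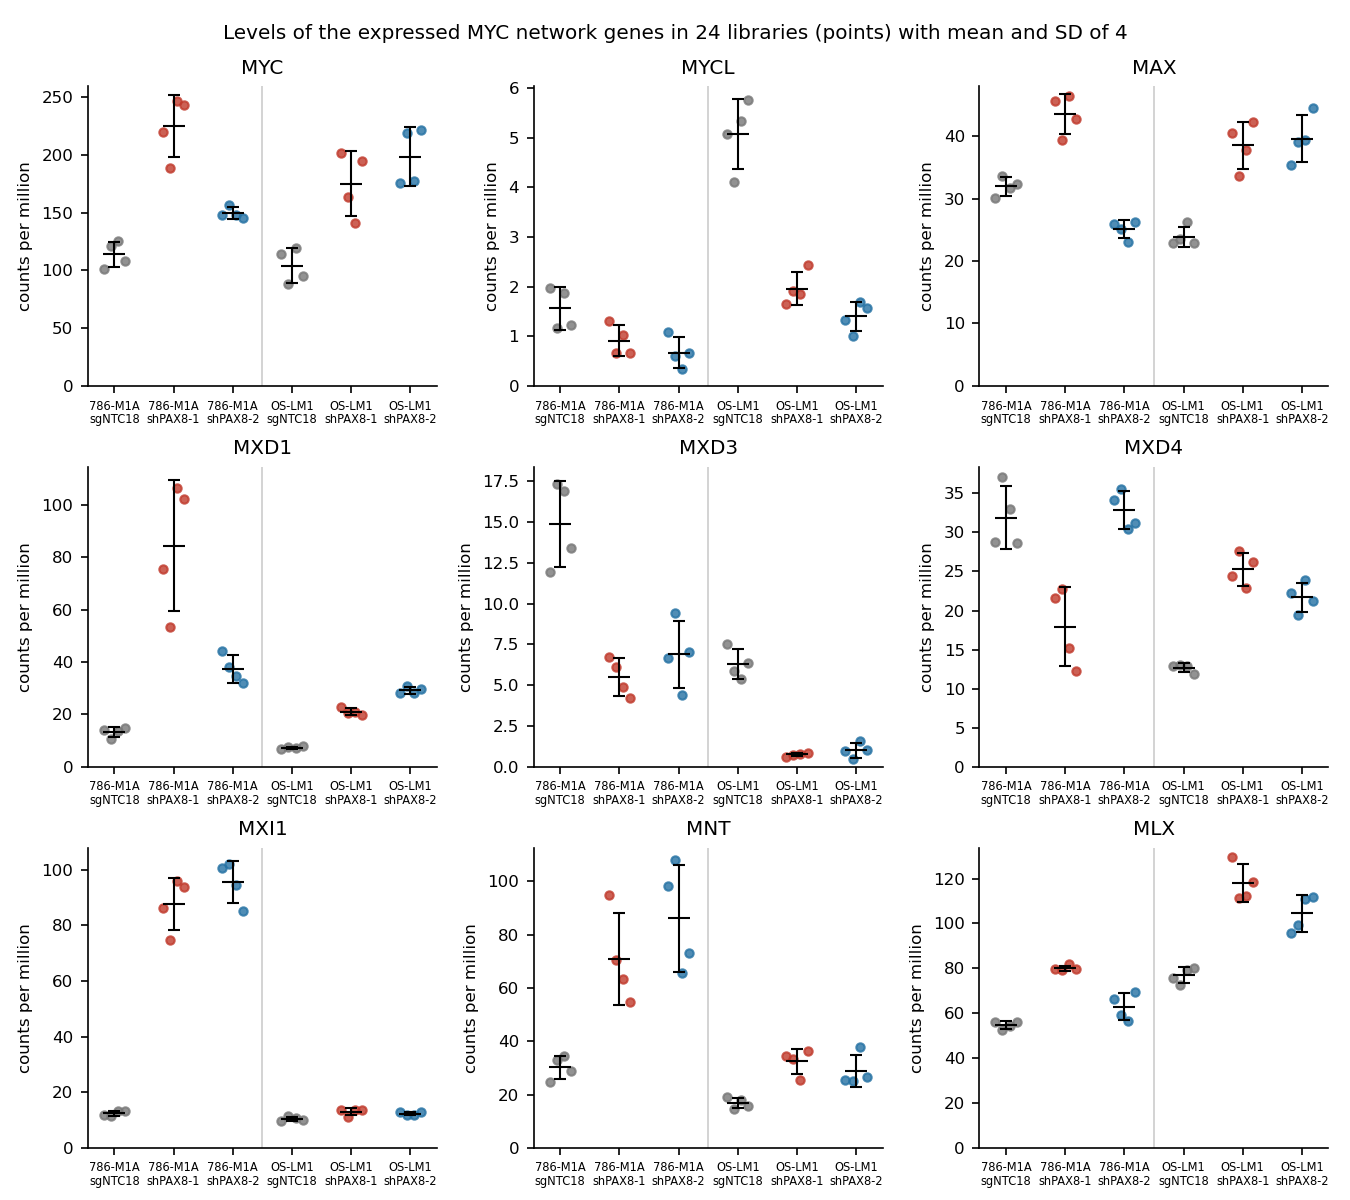
Level of each of the 9 expressed members (CPM, linear axis from 0) in the 6 groups, where the axis gives the 786-O derivative under its own label, with 1 point per library and the mean and SD of 4 in black. MXI1 lies between 74.9 and 102 in all 8 shPAX8 libraries of the 786-O derivative and at or below 13.7 in every other library, while MYC is lowest in the sgNTC18 libraries of each line.

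MYC, the main activating member, was the most abundant transcript of the family per length in all 6 groups. In TPM, which divides by transcript length before scaling, its mean was 89.7 ± 6.52 (SD, n = 4) in 786-O derivative sgNTC18 and 77.5 ± 10.6 TPM in OS-LM1 sgNTC18. The level in the 4 libraries of 786-O derivative sgNTC18 was 101, 121, 125 and 108 CPM. With shPAX8-1 it was 219.8, 189, 247 and 243 CPM, and with shPAX8-2 it was 148, 157, 148 and 145 CPM. None of the 3 groups overlapped. MYC was thus higher than in sgNTC18 by 1.00 on the log2 scale with shPAX8-1 (SE 0.10, edgeR adjusted p = 5.8e-07) and by 0.41 with shPAX8-2 (SE 0.10, adjusted p = 0.0028). Between the hairpins the log2 fold change was 0.59 (SE 0.10, adjusted p = 5.0e-04), 0.42 in replicates 1 and 2 of both and 0.73 in replicates 3 and 4, and it was called in both.

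OS-LM1 differed from the 786-O derivative in the order of the hairpins. MYC was at 114, 88.5, 119 and 94.8 CPM in sgNTC18, at 202, 164, 141 and 195 CPM with shPAX8-1 and at 175, 219, 177 and 221 CPM with shPAX8-2. Both hairpin groups lay above sgNTC18 without overlap, and they overlapped each other. The log2 fold change against sgNTC18 was 0.73 (SE 0.12, edgeR adjusted p = 2.2e-05) with shPAX8-1 and 0.94 (SE 0.12, adjusted p = 1.1e-06) with shPAX8-2, and that of shPAX8-1 against shPAX8-2 was -0.21 (SE 0.12, adjusted p = 0.20). In the order of the 6 group means, 786-O derivative shPAX8-1 came first (225 CPM), then OS-LM1 shPAX8-2 (198), OS-LM1 shPAX8-1 (175), 786-O derivative shPAX8-2 (149), 786-O derivative sgNTC18 (114) and OS-LM1 sgNTC18 (104). Each group overlapped the next in this order except 786-O derivative shPAX8-2 and 786-O derivative sgNTC18.

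The other activators were scarce. MYCL was at 1.16 to 1.97 CPM in 786-O derivative sgNTC18 (21 to 58 expected counts) and at 4.10 to 5.75 CPM in OS-LM1 sgNTC18 (140 to 192 expected counts). It fell by 1.39 on the log2 scale with shPAX8-1 (SE 0.19, edgeR adjusted p = 1.7e-06) and by 1.81 with shPAX8-2 (SE 0.19, adjusted p = 9.0e-08) in OS-LM1, without overlap of the libraries. In the 786-O derivative the log2 fold change was -0.77 with shPAX8-1 (SE 0.33, adjusted p = 0.051) and -1.17 with shPAX8-2 (SE 0.35, adjusted p = 0.0089), on 4 to 25 expected counts in the hairpin libraries. MYCL therefore moved in the opposite direction to MYC with both hairpins in OS-LM1 and with shPAX8-2 in the 786-O derivative. With shPAX8-1 in the latter line the signs were also opposite, but MYCL was not called. MYCN had no count in 22 of 24 libraries and at most 2 in the others. A count of 0 allows a level of up to 0.0576 to 0.258 CPM by depth (3 counts per library, counting error only), so MYCN was not detectable at this depth in those libraries.

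MAX, the partner that MYC and its antagonists share, set the hairpins apart in the 786-O derivative. It was at 30.1, 33.7, 31.7 and 32.4 CPM in sgNTC18, at 45.7, 39.3, 46.5 and 42.7 CPM with shPAX8-1 and at 25.9, 25.1, 23.1 and 26.3 CPM with shPAX8-2. The groups did not overlap, and the hairpin groups lay on opposite sides of sgNTC18. MAX was higher with shPAX8-1 than in sgNTC18 by 0.47 (SE 0.10, edgeR adjusted p = 5.0e-04) and lower with shPAX8-2 (log2 -0.33, SE 0.10, adjusted p = 0.0094). Between the hairpins the log2 fold change was 0.79 (SE 0.10, adjusted p = 3.6e-05), 0.74 in replicates 1 and 2 of both and 0.83 in replicates 3 and 4.

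In OS-LM1 MAX was at 22.9, 23.6, 26.2 and 22.8 CPM in sgNTC18, at 40.5, 33.5, 37.9 and 42.2 CPM with shPAX8-1 and at 35.4, 39.1, 39.3 and 44.5 CPM with shPAX8-2. Here both hairpin groups lay above sgNTC18 and overlapped each other. The log2 fold changes against sgNTC18 were 0.66 (SE 0.10, edgeR adjusted p = 5.3e-06) and 0.73 (SE 0.10, adjusted p = 1.7e-06). The difference between the hairpins was -0.07 (SE 0.10, adjusted p = 0.63).

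MXD1, an antagonist that is induced when many cell types differentiate, rose in every hairpin group. Its level in the 786-O derivative was 13.9, 10.6, 13.8 and 14.8 CPM in sgNTC18 and 44.1, 38.1, 34.8 and 31.9 CPM with shPAX8-2. With shPAX8-1 it was at 75.3, 53.3, 106 and 102 CPM, replicates 3 and 4 being the highest libraries of the series. The log2 fold change against sgNTC18 was 2.69 (SE 0.20, edgeR adjusted p = 2.0e-08) with shPAX8-1 and 1.51 (SE 0.20, adjusted p = 9.9e-06) with shPAX8-2. That between the hairpins was 1.18 (SE 0.19, adjusted p = 2.8e-04), 0.64 in replicates 1 and 2 of both and 1.64 in replicates 3 and 4.

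OS-LM1 showed the reverse order of the hairpins for MXD1. The level was 6.82, 7.59, 7.04 and 7.80 CPM in sgNTC18, 22.8, 20.4, 21.1 and 19.8 CPM with shPAX8-1, and 28.2, 30.7, 28.2 and 29.7 CPM with shPAX8-2. No group overlapped another. MXD1 was higher than in sgNTC18 by 1.50 (SE 0.10, edgeR adjusted p = 9.6e-11) and 2.00 (SE 0.10, adjusted p = 1.9e-12) on the log2 scale. It was the member called between the hairpins in this line, at -0.50 (SE 0.10, adjusted p = 5.4e-04).

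MXD3, an antagonist linked to proliferating cells, fell in every hairpin group. It was at 11.95, 17.3, 16.9 and 13.4 CPM in 786-O derivative sgNTC18, at 6.74, 6.12, 4.88 and 4.20 CPM with shPAX8-1 and at 6.66, 9.44, 4.39 and 7.06 CPM with shPAX8-2. In OS-LM1 it was at 7.55, 5.89, 5.37 and 6.36 CPM in sgNTC18, at 0.632, 0.741, 0.803 and 0.873 CPM with shPAX8-1 and at 0.980, 0.478, 1.59 and 1.02 CPM with shPAX8-2, the latter on 7.90 to 76.1 expected counts per library. The hairpin groups overlapped each other in each line and did not overlap sgNTC18. The log2 fold changes against sgNTC18 were -1.41 (SE 0.21, edgeR adjusted p = 2.8e-05) and -1.08 (SE 0.21, adjusted p = 4.4e-04) in the 786-O derivative, and -3.05 (SE 0.25, adjusted p = 1.8e-09) and -2.53 (SE 0.23, adjusted p = 1.4e-08) in OS-LM1. Between the hairpins MXD3 was not called in either line, at -0.34 in the 786-O derivative (-0.33 in replicates 1 and 2 of both and -0.37 in replicates 3 and 4) and -0.53 in OS-LM1.

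MXD4 differed in direction between the lines. In the 786-O derivative it was at 28.8, 37.1, 33.0 and 28.6 CPM in sgNTC18 and at 34.2, 35.5, 30.4 and 31.3 CPM with shPAX8-2, which lay within the range of sgNTC18. With shPAX8-1 it was at 21.5, 22.7, 15.2 and 12.2 CPM, below both other groups. The log2 fold change was -0.81 against sgNTC18 (SE 0.17, edgeR adjusted p = 6.4e-04) and -0.87 against shPAX8-2 (SE 0.17, adjusted p = 0.0012). Against shPAX8-2 it was -0.65 in replicates 1 and 2 of both and -1.19 in replicates 3 and 4.

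The OS-LM1 libraries had 12.9, 13.0, 13.0 and 11.8 CPM of MXD4 in sgNTC18, 24.4, 27.6, 22.9 and 26.1 CPM with shPAX8-1 and 22.2, 19.5, 23.9 and 21.2 CPM with shPAX8-2. Both hairpin groups lay above sgNTC18, by 0.97 (SE 0.10, edgeR adjusted p = 4.9e-08) and 0.78 (SE 0.10, adjusted p = 1.1e-06) on the log2 scale. The hairpin groups overlapped, with a difference of 0.19 (SE 0.10, adjusted p = 0.17).

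MXI1, the antagonist that also answers to hypoxia-inducible factors, was high in 1 setting, the hairpin libraries of the 786-O derivative. Whether those factors had a part in its level was not tested. There it was at 11.7, 11.4, 13.2 and 13.3 CPM in sgNTC18, at 86.3, 74.9, 95.8 and 93.7 CPM with shPAX8-1 and at 101, 102, 94.6 and 85.2 CPM with shPAX8-2. Both hairpin groups lay far above sgNTC18, 7.15-fold for shPAX8-1 (log2 2.84, SE 0.12, edgeR adjusted p = 5.8e-11) and 7.80-fold for shPAX8-2 (log2 2.96, SE 0.12, adjusted p = 5.9e-11). They overlapped each other, with a log2 fold change of -0.12 (SE 0.11, adjusted p = 0.35) that became -0.32 (adjusted p = 0.0040) once GC content was corrected for. It was -0.33 (adjusted p = 0.046) in replicates 1 and 2 of both and 0.064 (adjusted p = 0.66) in replicates 3 and 4. Per length MXI1 went from 6.91 ± 0.454 TPM in sgNTC18, 7th in the family, to 45.1 ± 4.37 and 48.7 ± 4.53 TPM, 3rd and 2nd.

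In OS-LM1 MXI1 was at 9.66, 11.3, 10.7 and 10.1 CPM in sgNTC18, at 13.5, 11.1, 13.6 and 13.7 CPM with shPAX8-1 and at 12.9, 11.7, 11.8 and 12.9 CPM with shPAX8-2. These levels were close to those of 786-O derivative sgNTC18. The log2 fold change against sgNTC18 was 0.28 with shPAX8-1 (SE 0.11, edgeR adjusted p = 0.026) and 0.24 with shPAX8-2 (SE 0.11, adjusted p = 0.061). The first call was lost in 4 of the 8 fits that left out 1 library, those without sgNTC18 replicate 1 and without shPAX8-1 replicate 1, 3 or 4 (0.26 to 0.27, adjusted p 0.051 to 0.069), and with the GC trend removed (0.10, adjusted p = 0.33).

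MNT, the antagonist made in most cells whether or not they divide, rose in every hairpin group. Its level in the 786-O derivative was 24.9, 32.8, 34.6 and 29.0 CPM in sgNTC18, 94.7, 70.4, 63.2 and 54.8 CPM with shPAX8-1 and 98.3, 108, 65.7 and 73.0 CPM with shPAX8-2. The hairpin groups overlapped each other and lay above sgNTC18, by 1.24 (SE 0.19, edgeR adjusted p = 2.7e-05) and 1.53 (SE 0.19, adjusted p = 5.6e-06) on the log2 scale. In OS-LM1 it was at 19.0, 14.8, 17.9 and 15.8 CPM in sgNTC18, at 34.4, 33.4, 25.6 and 36.4 CPM with shPAX8-1 and at 25.6, 25.3, 38.0 and 26.7 CPM with shPAX8-2. The log2 fold changes there were 0.92 (SE 0.14, adjusted p = 5.5e-06) and 0.79 (SE 0.13, adjusted p = 3.6e-05). Between the hairpins MNT was not called in the 786-O derivative (-0.29, SE 0.18, adjusted p = 0.21), nor in replicates 1 and 2 of both (-0.32, adjusted p = 0.13) or replicates 3 and 4 (-0.25, adjusted p = 0.17). It was called without shPAX8-1 replicate 1 (-0.47, adjusted p = 0.029).

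MLX, the partner of MXD1, MXD4, MNT and the Mondo proteins, was 2nd in the family per length in 5 of 6 groups. It ranged in the 786-O derivative from 52.5 to 56.2 CPM in sgNTC18, from 79.3 to 81.7 CPM with shPAX8-1 and from 56.6 to 69.5 CPM with shPAX8-2. Relative to sgNTC18 it rose by 0.57 on the log2 scale with shPAX8-1 (SE 0.09, edgeR adjusted p = 4.3e-05) and by 0.22 with shPAX8-2 (SE 0.09, adjusted p = 0.045). The smaller change was no longer called in 6 of the 8 fits that left out 1 library, all but those without shPAX8-2 replicate 2 or 3 (0.16 to 0.23, adjusted p 0.070 to 0.14). In OS-LM1 it ranged from 72.8 to 80.3 CPM in sgNTC18, from 111 to 129.7 CPM with shPAX8-1 and from 95.7 to 112 CPM with shPAX8-2, with log2 fold changes of 0.59 (SE 0.08, adjusted p = 2.2e-06) and 0.44 (SE 0.08, adjusted p = 6.9e-05).

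**Figure D2:**
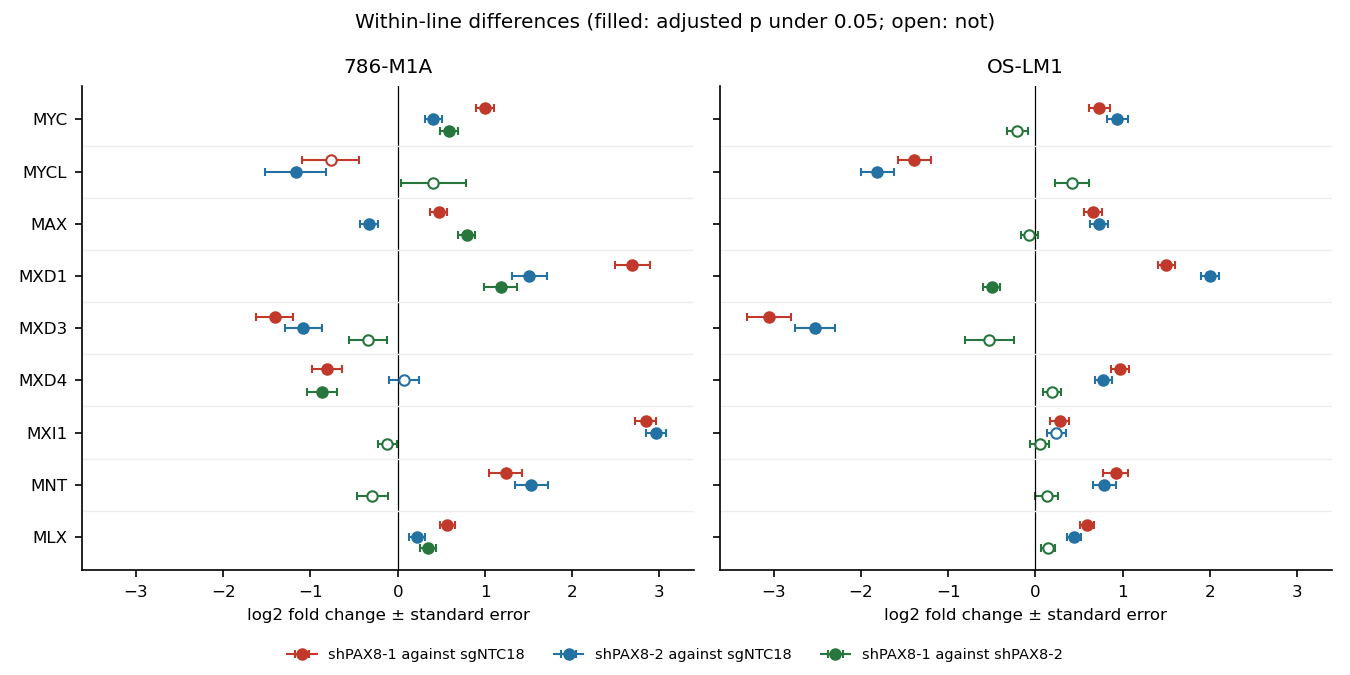
Log2 fold change with its standard error for each member in the 3 comparisons within each line, filled where the edgeR adjusted p is under 0.05 and open where it is not. In OS-LM1 MXD1 (-0.50) alone is filled between the hairpins, and in the 786-O derivative MAX lies on opposite sides of 0 against sgNTC18 for shPAX8-1 (0.47) and shPAX8-2 (-0.33).

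Between the hairpins in the 786-O derivative the fold change of genes fell with their GC content (Spearman rho -0.557 across 13048 genes, which are not independent replicates). Once each library's GC trend was taken out, the 5 members called in that comparison were still called, with log2 fold changes of 0.62 for MYC, 0.93 for MAX, 0.93 for MXD1, 0.51 for MLX and -0.50 for MXD4. MNT and MXD3, which were not called, changed sign (0.22 and 0.16). Across the other 5 comparisons within a line the correlation lay between -0.363 and -0.098. In OS-LM1 the same step raised the number of members called between the hairpins from 1 to 4, adding MNT (0.28, adjusted p = 0.025), MXD4 (0.30, adjusted p = 0.0052) and MYCL (0.54, adjusted p = 0.033).

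The balance of the family was described by ratios of TPM within each library, which need no scaling between libraries. MYC over MAX was 2.78, 2.96, 3.21 and 2.77 in 786-O derivative sgNTC18, 4.10, 4.12, 4.51 and 4.85 with shPAX8-1 and 4.81, 5.09, 5.34 and 4.60 with shPAX8-2. Both hairpin groups lay above sgNTC18 there, whereas in OS-LM1 the groups overlapped at 3.03 to 4.09, 2.91 to 4.01 and 3.58 to 4.48. The summed level of MXD1, MXD3, MXD4, MXI1 and MNT over MYC was 0.618 to 0.641 in 786-O derivative sgNTC18, 0.609 to 0.729 with shPAX8-1 and 0.927 to 1.13 with shPAX8-2. So the antagonists together were about level with MYC in the shPAX8-2 libraries of the 786-O derivative. The largest parts of the sum there were MXI1 and MNT, at means of 48.7 and 30.3 TPM. MXD4, MXD1 and MXD3 were at 14.8, 11.3 and 6.55 TPM. In OS-LM1 the ratio of summed antagonists to MYC was 0.289 to 0.396 in sgNTC18, 0.256 to 0.328 with shPAX8-1 and 0.209 to 0.311 with shPAX8-2. All of these lay below every 786-O derivative library. The levels are of RNA, and protein was not measured in these files.

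**Figure D3:**
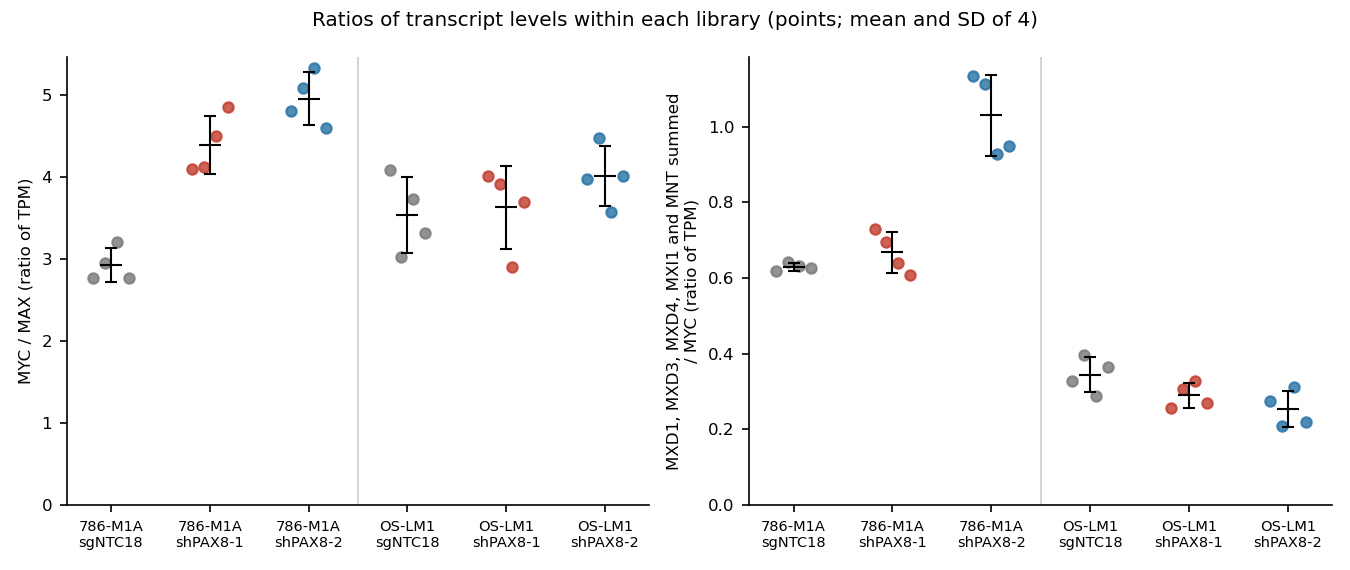
Ratio of MYC to MAX (left) and of the 5 summed antagonists to MYC (right), in TPM, for each of the 24 libraries with the mean and SD of 4 per group. The antagonist ratio is 1.03 ± 0.108 in 786-O derivative shPAX8-2 and 0.254 ± 0.0474 in OS-LM1 shPAX8-2, the highest and lowest group means.

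The lines were then compared directly, in a fit over all 24 libraries. With hairpins (the mean of both constructs), 7 of 9 members differed between OS-LM1 and the 786-O derivative, 3 higher and 4 lower in OS-LM1, where 83.1% of all genes tested were called. In the sgNTC18 libraries 8 of 9 differed, 2 higher and 6 lower (63.0% of all genes). MYC was not called in either, at 0.03 (SE 0.08, edgeR adjusted p = 0.79) and -0.13 (SE 0.12, adjusted p = 0.36). MXI1 was lower in OS-LM1 by a log2 fold change of -2.86 among hairpin libraries (SE 0.07, adjusted p = 1.8e-22) and -0.25 among sgNTC18 libraries (SE 0.10, adjusted p = 0.035). The latter call was lost in 5 of 8 fits that left out 1 library (786-O derivative sgNTC18 replicate 3 or 4, OS-LM1 sgNTC18 replicate 1, 3 or 4), at -0.26 to -0.21. MXD3 was lower in OS-LM1 with hairpins (-2.74, SE 0.18) and with sgNTC18 (-1.24, SE 0.21), and so were MNT (-1.35 and -0.85) and MXD1 (-1.18 and -0.86). MYCL (1.08 and 1.68) and MLX (0.64 and 0.49) were higher.

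Whether the lines differed in the effect of a construct was tested by the interaction. Of 9 members, 4 differed between the lines in shPAX8-1 against shPAX8-2 (27.2% of all genes): MXD1 (OS-LM1 minus the 786-O derivative, -1.65 on the log2 scale, SE 0.21, edgeR adjusted p = 3.9e-06), MAX (-0.83, SE 0.13, adjusted p = 5.9e-05), MYC (-0.77, SE 0.17) and MXD4 (1.09, SE 0.20, adjusted p = 2.3e-04). PAX8 itself differed in the same contrast, by 1.16 (SE 0.20), since its level with shPAX8-1 was below that with shPAX8-2 in the 786-O derivative and near it in OS-LM1. In hairpins against sgNTC18, 5 of 9 differed between the lines (58.7% of all genes). They were MXI1 (-2.61, SE 0.13, adjusted p = 2.3e-15), MXD3 (-1.50, SE 0.28, adjusted p = 4.5e-05), MXD4 (1.27, SE 0.17, adjusted p = 5.1e-07), MAX (0.66, SE 0.12, adjusted p = 2.4e-05) and MNT (-0.50, SE 0.21, adjusted p = 0.044). The call for MNT was lost in 13 of the 24 fits that left out 1 library (log2 -0.60 to -0.42, adjusted p 0.014 to 0.11 over the 24). For MYC that difference was 0.15 (SE 0.15, adjusted p = 0.38).

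**Figure D4:**
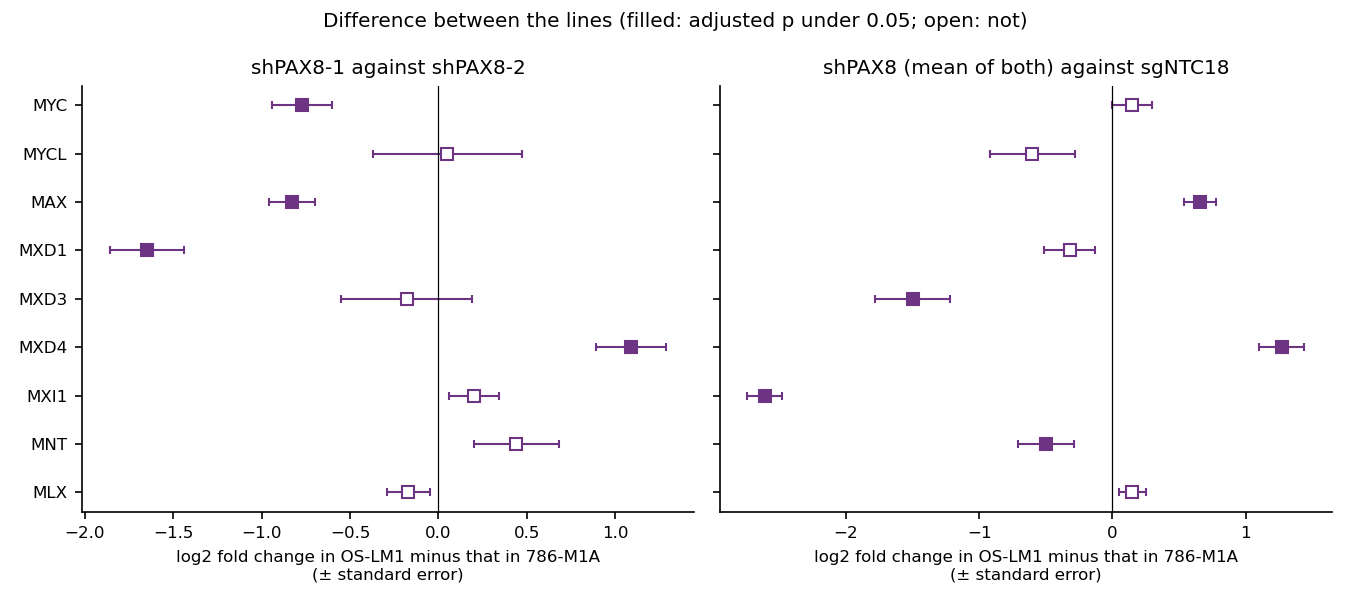
Log2 fold change in OS-LM1 minus that in the 786-O derivative, with its standard error, for the hairpins against each other (left) and for their mean against sgNTC18 (right), filled where the edgeR adjusted p is under 0.05. MXD1 (-1.65) lies farthest from 0 on the left and MXI1 (-2.61) on the right, on axes with different ranges.

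Genes that MYC and MAX are known to act on, or to be acted on by, were read as lists, each described by its counts. Beside them stand the shares of all genes called higher and lower, which were 24.2% and 22.9% between the hairpins in the 786-O derivative, 36.1% and 34.5% for shPAX8-1 and 31.5% and 30.9% for shPAX8-2 against sgNTC18 there. In OS-LM1 they were 12.4% and 16.7% between the hairpins, and 35.6% and 35.8% and then 34.3% and 34.1% against sgNTC18. List genes named as most raised or most lowered are so among those with a mean log2 CPM of at least 3. Of 22 ribosome biogenesis genes that MYC activates, all tested, 9 rose and 4 fell in shPAX8-1 relative to shPAX8-2 libraries of the 786-O derivative (59.1% of the list called, beside 47.1% of all genes). In OS-LM1 none was higher and 9 were lower (40.9% of the list, beside 29.1%). The list's median log2 fold change was 0.18 in the 786-O derivative and -0.24 in OS-LM1. WDR12 (0.70, SE 0.17, edgeR adjusted p = 0.0045) and POLR1B (0.67, SE 0.10, adjusted p = 1.6e-04), a subunit of RNA polymerase I, were the most raised in the 786-O derivative, and MRTO4 (-0.59, SE 0.12) was the most lowered. BYSL (-0.56, SE 0.12) and MRTO4 (-0.53, SE 0.11) led those lowered in OS-LM1.

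Against sgNTC18 the same list was lower more often than higher, while MYC was higher. In the 786-O derivative 12 were lower and 7 higher with shPAX8-1, and 13 lower and 2 higher with shPAX8-2. In OS-LM1 17 were lower and 5 higher with shPAX8-1, and 15 lower and 5 higher with shPAX8-2. Medians lay between -0.59 and -0.30. Among list genes with a mean log2 CPM of at least 3, RRS1 (-2.16 and -2.24) in the 786-O derivative and BOP1 (-1.76 and -1.40) in OS-LM1 were the most lowered with shPAX8-1. Both are ribosome assembly factors. RRP9, below that level in OS-LM1, fell further there, from a mean of 13.1 CPM in sgNTC18 to 3.24 CPM with shPAX8-1, beside 20.3 and 6.11 CPM for BOP1. GNL3 (1.32 and 0.75 in the 786-O derivative), which encodes nucleostemin, was among those raised. The 2 comparisons of each line share their sgNTC18 libraries.

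The 21 tested metabolic and other genes that MYC activates showed a like split. Between the hairpins 8 were higher and 3 lower in the 786-O derivative, and 1 higher and 9 lower in OS-LM1, with medians of 0.08 and -0.18. PPAT (1.47, SE 0.21, edgeR adjusted p = 1.2e-04), which starts purine synthesis, and HSPE1 (1.33, SE 0.23, adjusted p = 5.0e-04), a mitochondrial chaperonin, were the most raised in the 786-O derivative. In OS-LM1 SLC7A5 (-0.80, SE 0.14, adjusted p = 2.4e-04), an amino acid transporter, and CAD (-0.55, SE 0.14), which starts pyrimidine synthesis, were the most lowered. Against sgNTC18, 13 and 14 were lower in the 786-O derivative and 16 and 13 in OS-LM1, with 1 to 3 higher in each comparison and medians between -0.61 and -0.36. The glycolytic enzymes ENO1 (-1.34 and -1.28 in the 786-O derivative) and LDHA (-1.42 with shPAX8-2 in OS-LM1) were among those lowered.

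Of 10 genes that MYC represses, 6 were tested in the 786-O derivative and 8 in OS-LM1. Between the hairpins 2 were higher and 2 lower in the 786-O derivative. GADD45A, a stress-response gene, was higher (1.53, SE 0.17, edgeR adjusted p = 1.2e-05) and CDKN1A, the cell-cycle inhibitor p21, was lower (-1.12, SE 0.09, adjusted p = 1.4e-06). In OS-LM1 1 was higher (GADD45A, 0.28, SE 0.10) and 1 lower (NDRG1, -0.37, SE 0.09). Against sgNTC18 4 and 3 were higher in the 786-O derivative and 1 and 2 lower, with medians of 0.60 and 0.29. CDKN1A was lower in the 786-O derivative (-1.87 and -0.75) and higher in OS-LM1 (0.48 and 0.51), where 4 and 4 of the 8 were higher and 2 and 3 lower.

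Among 20 tested cofactors of the family, 2 were higher and 6 lower between the hairpins in the 786-O derivative and none higher and 7 lower in OS-LM1, with medians of -0.16 and -0.19. The MAX partner MGA was higher in the 786-O derivative (0.59, SE 0.14, edgeR adjusted p = 0.0041), and SIN3B, a corepressor that the MXD proteins and MNT recruit, was lower in both lines (-0.73, SE 0.18, and -0.49, SE 0.14). Against sgNTC18 3 and 5 were higher and 7 and 5 lower in the 786-O derivative, and 4 and 7 higher and 9 and 8 lower in OS-LM1. So 10 of the 20 cofactors were called with each hairpin in the 786-O derivative, beside the 70.6% and 62.5% of all genes, and 65.0% and 75.0% in OS-LM1, beside 71.4% and 68.4%. The elongation kinase CDK9 was lower with both hairpins in the 786-O derivative (-1.33, SE 0.14, and -0.80, SE 0.14), as was RUVBL1, an ATPase of chromatin remodelling complexes (-0.93, SE 0.13, and -1.22, SE 0.13). In OS-LM1 RUVBL2, the partner of RUVBL1, was lower with both hairpins (-1.36, SE 0.10, and -1.32, SE 0.10).

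The list of genes for MYC protein turnover had 14 tested members in the 786-O derivative and 15 in OS-LM1. Between the hairpins 6 were higher and none lower in the 786-O derivative, and 1 was higher and 4 lower in OS-LM1. FBXO32, an F-box subunit of a ubiquitin ligase, was higher with shPAX8-1 in both lines, by 1.32 (SE 0.13, edgeR adjusted p = 3.9e-06) and 2.23 (SE 0.12, adjusted p = 1.2e-10), and was lower with shPAX8-2 than in sgNTC18 in OS-LM1 (-1.75, SE 0.12). GSK3B, a kinase that marks MYC for degradation, was higher in the 786-O derivative (1.00, SE 0.12). Against sgNTC18 7 and 4 were higher and 5 and 5 lower in the 786-O derivative, and 5 and 4 higher and 10 and 8 lower in OS-LM1. PLK1, a mitotic kinase, was lower in OS-LM1 (-3.09 and -2.63).

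**Figure D5:**
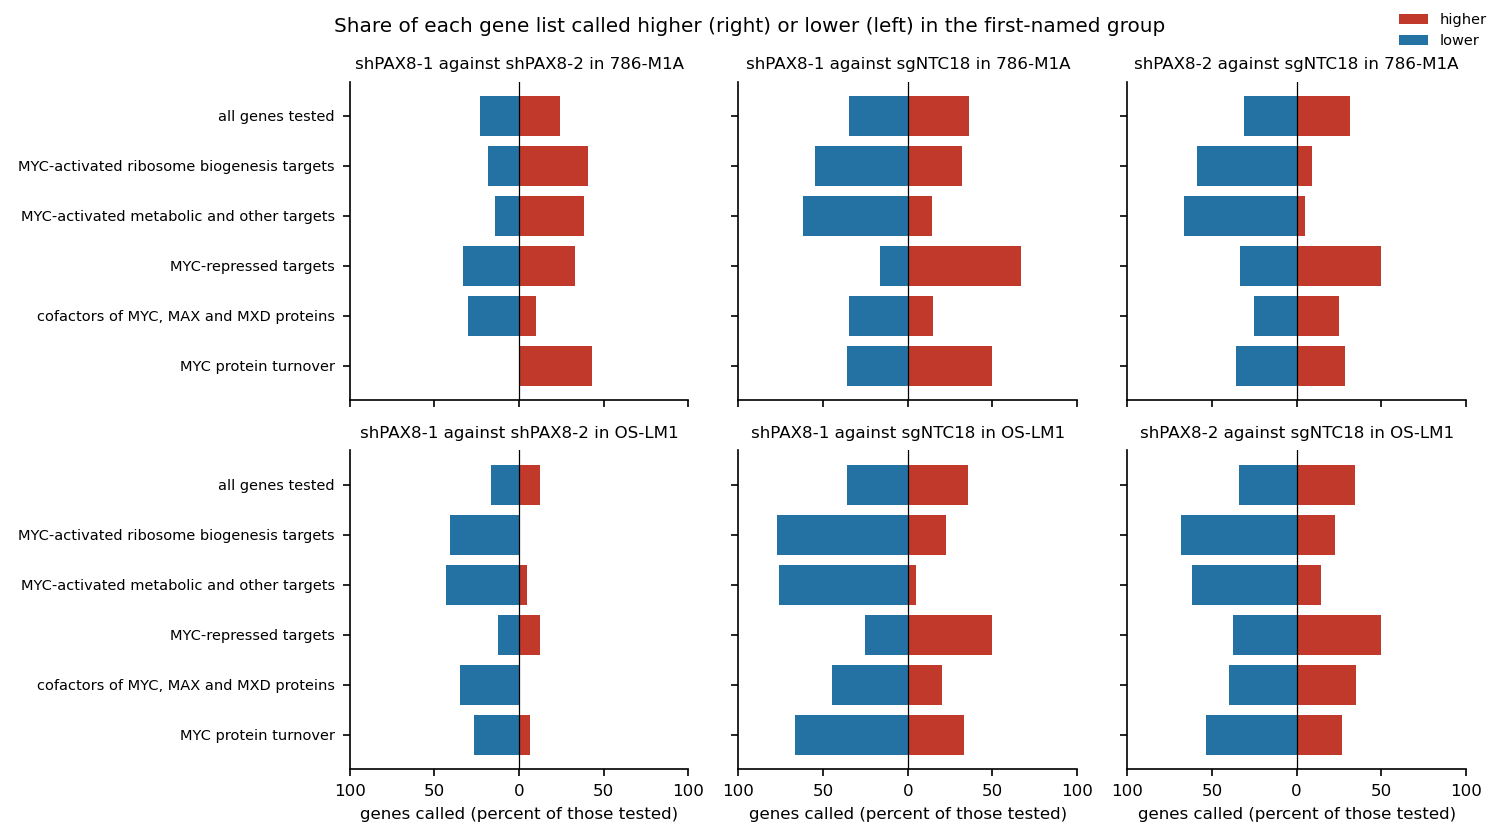
Share of the tested genes of 5 lists, and of all genes, called higher (red, right) or lower (blue, left) in the first-named group, in percent, for the 6 comparisons within a line. The lists of MYC-activated genes reach farther to the left than all genes in the 4 comparisons with sgNTC18, and in OS-LM1 none of the 22 ribosome biogenesis genes is higher with shPAX8-1 than with shPAX8-2.

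All 3 targets of MondoA and MLX were tested. TXNIP, an inhibitor of thioredoxin that glucose induces through MondoA, differed between the hairpins, lower for shPAX8-1 in the 786-O derivative (-0.44, SE 0.11, edgeR adjusted p = 0.0039) and higher in OS-LM1 (0.81, SE 0.07, adjusted p = 1.3e-07). It was the member of the list called in the 786-O derivative between the hairpins, and in OS-LM1 KLF10 (0.41, SE 0.09) was called as well. Against sgNTC18, none was called with shPAX8-1 in the 786-O derivative and 1 was higher with shPAX8-2 (TXNIP, 0.59, SE 0.11). In OS-LM1 ARRDC4, an arrestin-domain relative of TXNIP, was higher with both hairpins (2.04 and 1.81), while KLF10 was lower (-0.28 and -0.70). Of 7 noncoding and retrogene neighbours of MYC, 2 were tested in the 786-O derivative and 4 in OS-LM1. Between the hairpins none was called in the 786-O derivative and 1 was higher in OS-LM1, and against sgNTC18 1 was higher with each hairpin in the 786-O derivative, 1 was higher and 1 lower with shPAX8-1 in OS-LM1, and 1 was lower with shPAX8-2. PVT1, the long noncoding RNA next to MYC, was the lower one with shPAX8-1 in OS-LM1 (-0.39, SE 0.15, adjusted p = 0.024). The others were PRNCR1, higher with each hairpin in the 786-O derivative, CASC8, higher with shPAX8-1 in OS-LM1, and CCAT1, higher with shPAX8-1 than with shPAX8-2 and lower with shPAX8-2 than in sgNTC18 in OS-LM1. These 3 genes had a mean log2 CPM under 3, so their calls rest on low counts, and they were named after their values were seen.

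The genes most like MYC, MAX and MXI1 over the 24 libraries were found by Pearson's r of log2 CPM among 9362 other genes with an average log2 CPM of at least 3. The libraries fall into 2 lines and 3 constructs, so r describes these 6 groups and has no p-value. Nearest to MYC were PPP3R1 (r = 0.941), NRBF2 (0.936) and DIEXF (0.925). Nearest to MAX were LGALS8 (0.887), STARD4 (0.862) and IL15RA (0.852). Nearest to MXI1 were PNISR (0.985), MBOAT2 (0.984) and CRELD1 (0.979). PNISR, for example, was at 123.6 to 145.4 and 106.2 to 121.2 CPM in the hairpin groups of the 786-O derivative, against 28.96 to 33.39 CPM in sgNTC18 and 27.5 to 42.27 CPM over all OS-LM1 libraries. Among the members that reached that average, all but MYCN, MYCL and MXD3, MXI1 and MNT were the closest pair (r = 0.904). MYC and MXD1 followed (0.831), and MYC with MAX reached 0.794.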

How the data were processed

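Poly(A) RNA was sequenced from 24 libraries, 4 per group and 3 groups for each of 2 lines, from a KAPA stranded kit per the labels and a Lexogen kit per the study's methods; this was not resolved. The authors aligned reads to hg38 with Bowtie2 and estimated expected counts and TPM per gene with RSEM, tools that the submitters' processing notes name without versions. The deposited expected counts were rounded to whole numbers, and the deposited TPM values were used for levels compared between genes and for ratios.

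Counts were filtered (filterByExpr), scaled by the trimmed mean of M-values and tested with robust quasi-likelihood fits in edgeR 4.0.16 (R 4.3.3, limma 3.58.1), within each line for the 3 comparisons of its groups and over all 24 libraries for comparisons between lines. There the shPAX8 effect was the equal-weight mean of both constructs. P-values were two-sided and Benjamini-Hochberg adjusted over all genes tested, with a threshold of 0.05. Log2 CPM used a prior count of 2. The script was tested on simulated data. Depth was 11634419 to 52059375 counts per library, which limits MYCN, MYCL and MXD3, and the floor of 3 counts covers counting error only.

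The members and the 7 gene lists (cofactors, MYC protein turnover, activated ribosome biogenesis and metabolic targets, repressed targets, MondoA and MLX targets, and neighbours of MYC) were chosen with earlier results of these data known. Named genes were all 10 members, PAX8, up to 2 genes each way per list and comparison within a line, largest in absolute log2 fold change among those called whose mean log2 CPM reached 3, and the 3 genes most correlated with each of MYC, MAX and MXI1. Alternatives were DESeq2 1.42.0, DESeq2 size factors, no filter, a fit over all libraries, a replicate block, removal of each library's GC trend (spline, 5 degrees of freedom), stricter thresholds, each pair of the 786-O derivative hairpin libraries and leaving out each library. The study's hairpin control was not analysed here.

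The M1A line derived from 786-O is named in the text by its parent and in the plots by its label. Another derivative of 786-O that the study used was not analysed here. Results on some listed cofactors are not reported here.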

Additional observations from a re-analysis of the deposited data

Results flagged for a closer look

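Among 53 sets of 4 libraries, 1 for each member and group with a level, 3 had a library far from the other replicates by Dixon's criterion, where chance gives about 1 in 20 (2.65 of 53). They were MXD4 in OS-LM1 sgNTC18 replicate 4 (11.8 CPM), MXI1 in OS-LM1 shPAX8-1 replicate 2 (11.1 CPM) and MNT in OS-LM1 shPAX8-2 replicate 3 (38.0 CPM).

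Effects of a construct differed between the lines for several members, each by the edgeR test of the interaction (OS-LM1 minus the 786-O derivative, log2 scale). For shPAX8-1 against shPAX8-2 these were MXD1 (-1.65), MAX (-0.83), MYC (-0.77) and MXD4 (1.09). For the hairpins against sgNTC18 they were MXI1 (-2.61), MXD3 (-1.50), MXD4 (1.27), MAX (0.66) and MNT (-0.50). PAX8 differed in the same contrasts (1.16 and 1.87), and its part in these differences was not tested.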

How the results depend on the processing

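Of 1836 alternative values for single members, 1729 kept both sign and call, 55 lost the call, 26 gained it and 26 changed sign. Of the 1836, 1008 came from fits that left out 1 library and so share most libraries with the main fit. Values under the stricter thresholds were those of the main fit, so their sign could not change. Under DESeq2 90 of 90 member values kept both sign and call. Genes called between the hairpins numbered 6803 in the 786-O derivative, 4329 at an adjusted p under 0.01, 4335 with an absolute log2 fold change over 0.58 3869 with shPAX8-1 replicates 1 and 2 only, 9048 with its replicates 3 and 4 only, and, in fits chosen after seeing the data, 4461 with replicates 1 and 2 of both hairpins and 7814 with replicates 3 and 4 of both, where MXI1 changed sign (0.064). In OS-LM1 they numbered 4378, 2703 and 1978 under the first 3 of these, and the difference between the lines had 4264 and 2449. Members called went from 8 to 5 (shPAX8-2 against sgNTC18 in the 786-O derivative), from 1 to 0 (hairpins in OS-LM1) and from 8 to 5 (lines, sgNTC18) with the fold minimum. The hairpins in OS-LM1 had 1 to 2 members called when 1 library was left out, MXD3 being added without shPAX8-2 replicate 2 (-0.72, adjusted p = 0.031).

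With the GC trend removed, alone or with the replicate block, 4 members were called between the hairpins in OS-LM1, and these log2 values changed sign: MNT (0.22 and 0.22) and MXD3 (0.16 and 0.17) between the hairpins in the 786-O derivative, MXI1 between them in OS-LM1 (-0.0058 and -0.0064), MXD4 (0.22 and 0.23) and MYC (-0.077 and -0.077) between lines with hairpins, and MYCL in the difference between lines for the hairpins (-0.21 and -0.18). None was called before, and MXD4 was called after (adjusted p = 0.001 and 0.00043). Leaving out 1 library changed the sign of values near 0: MAX between hairpins in OS-LM1 (-0.12 to 0.01), MXD4 (-0.12 to 0.018) and MYC (-0.011 to 0.073) between lines with hairpins, and MXD3 (-0.37 to 0.19) and MYCL (-0.29 to 0.28) in the difference between lines for the hairpins. The difference between lines for MNT against sgNTC18 lost its call without 786-O derivative sgNTC18 replicate 1 or 4, shPAX8-1 replicate 1 or 2, or shPAX8-2 replicate 1 or 2, and without OS-LM1 sgNTC18 replicate 1 or 3, shPAX8-1 replicate 2 or 3, or shPAX8-2 replicate 1, 2 or 4. MYCL gained a call with shPAX8-1 in the 786-O derivative without sgNTC18 replicate 2 or 4 or shPAX8-1 replicate 1 (adjusted p 0.022 to 0.046), and MXI1 with shPAX8-2 in OS-LM1 without sgNTC18 replicate 2 (0.28, adjusted p = 0.046).

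The replicate numbers were not taken to pair the samples, since no labels tie them and not every pair correlated over 0.1. Between the hairpins in the 786-O derivative same-numbered libraries came nearest, with a mean of 0.213 (0.0447 to 0.347, 3 of 4 over 0.1) against -0.0718 for different numbers. Elsewhere the means were -0.0943 to 0.0315. With the replicate block 6998 genes were called between the hairpins in the 786-O derivative and 3642 in OS-LM1, MLX with shPAX8-2 in the 786-O derivative and MXI1 with shPAX8-1 in OS-LM1 each had an adjusted p of 0.057, and MNT in the difference between lines 0.062. The cause of these changes was not tested. Depth limits MYCN, MYCL and MXD3.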

Other observations

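The gene lists also differed between the lines directly. With hairpins, 12 of 15 tested genes for MYC protein turnover were lower in OS-LM1 than in the 786-O derivative and 2 higher (median log2 fold change -0.77), where 41.5% of all genes were lower and 41.7% higher. Of 22 ribosome biogenesis targets 13 were higher and 5 lower (median 0.47). With sgNTC18, 7 turnover genes were lower and 4 higher, and 10 ribosome biogenesis targets were higher and 6 lower (median 0.08), beside 31.0% of all genes lower and 32.0% higher. All 3 targets of MondoA and MLX were higher in OS-LM1 with hairpins (median 0.99) and with sgNTC18 (median 1.05).

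The lines differed in the effect of shPAX8-1 against shPAX8-2 for 11 of 22 ribosome biogenesis targets and 11 of 21 metabolic and other targets. All 11 of the former and 10 of the latter had the lower fold change in OS-LM1 (medians -0.45 and -0.52), beside 14.5% of all genes lower and 12.7% higher. Among the members called in that contrast, MYC (-0.77), MAX (-0.83) and the antagonist MXD1 (-1.65) were lower, and the antagonist MXD4 (1.09) was higher. The fold change of genes in that contrast also rose with their GC content (Spearman rho 0.397 across 14083 genes). A link between these members and the lists was not tested.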
